A study of Mus musculus with 4 samples.

Results

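The cytosolic ribosome is built from ribosomal RNA and about one protein per gene of a large family, named Rpl for the large subunit and Rps for the small one. Members were chosen by symbol: Rpl or Rps followed by a number and at most one of the letters a, l or x, plus Rplp0, Rplp1, Rplp2 and Rpsa. The rule found 82 genes among the 49671 in the table, 50 of the large and 32 of the small subunit. Their messages were compared between basal epithelial cells of the tips and of the ducts of the mouse ventral prostate. The rule uses symbols and no measured value.

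Bulk RNA-seq was made from 4 libraries: 2 of basal cells from tips (tip 1 and tip 2) and 2 of basal cells from ducts (duct 1 and duct 2). Per the labels, the animals were male and untreated as far as stated, no strain or genotype is given, and tips and ducts were chopped apart from the ventral lobes of 20 mice. All 4 libraries share 1 sort, which discarded cells bearing CD45, CD31 or CD140a (the product of Pdgfra) and took as basal those with high EpCAM and high CD49f (the product of Itga6). The age is postnatal day 13 in the titles but days 10 to 12 in the field for age. Tip and duct were read from the titles, since every library is called tip in the field for cell type. Nothing in the labels says that the 2 libraries of a group are separate animals, so a p-value here measures only the spread between these libraries, which may be technical.

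Each ribosomal protein binds a set position in the ribosome, so a cell needs the proteins in near equal numbers, and their genes are usually expressed together at a high level. The messages typically begin with an unbroken run of pyrimidines (C and T in the DNA), the 5′ terminal oligopyrimidine or TOP tract. Through it the mTOR kinase sets how much of each message is translated, a step that message levels do not show. Several ribosomal proteins also have roles outside the ribosome, and many genes of the family hold small nucleolar RNA (snoRNA) genes in their introns and have near-identical processed pseudogenes elsewhere in the genome.

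The sequences around the start show what the members share apart from their symbol. RefSeq start positions on GRCm38.p6 could be matched for 60 of the 82 members. The 8 windows printed here are 30 bases long, from 10 bases before the start to 20 after it, on the strand of the gene, 5′ to 3′. Capitals mark the longest unbroken run of C and T. The first 4 have the longest runs among the windows read, and the others belong to genes described further on.
Rpl27a (chr7:109519185-109519214, plus strand): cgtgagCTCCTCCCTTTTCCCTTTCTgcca
Rpl35 (chr2:39005112-39005141, minus strand): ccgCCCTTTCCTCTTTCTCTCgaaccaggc
Rpl7a (chr2:26910797-26910826, plus strand): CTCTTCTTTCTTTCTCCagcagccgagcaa
Rpl15 (chr14:18270967-18270996, minus strand): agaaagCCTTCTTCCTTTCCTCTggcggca
Rps6 (chr4:86857348-86857377, minus strand): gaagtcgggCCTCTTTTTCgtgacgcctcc
Rps26 (chr10:128626487-128626516, minus strand): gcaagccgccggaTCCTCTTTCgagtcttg
Rpl11 (chr4:136053374-136053403, minus strand): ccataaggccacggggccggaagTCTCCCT
Rpl22 (chr4:152325716-152325745, plus strand): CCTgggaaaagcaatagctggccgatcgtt

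The run is 20 bases long in Rpl27a, 18 in Rpl35, 10 in Rps6 and 3 in Rpl22, so the annotated starts differ widely within the family. A run of at least 8 pyrimidines lay in this window in 20 of 60 members (33.3%) and in 3001 of 26965 other genes (11.1%). A run of at least 10 lay in 14 members (23.3%) and in 4.73% of the other genes. The first transcribed base was C in 19 of 60 members (31.7%) and in 16.1% of the others.

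Motifs were searched by their letters on both strands of the window from 250 bases before to 50 bases after the start. CCGGAAG, a core that ETS-family factors bind, was present in 24 of 60 members (40%) and in 9.05% of 26965 other genes. CTCTTTCC was present in 9 members (15%) and in 3.02% of the others. TATAAA was less frequent in the members, with 5 (8.33%) against 14.2%. CTCTTTCC can lie within a pyrimidine run, so its matches are not independent of the runs. A match is a description of letters and not a measured binding site.

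The table gives reads scaled to a common total, and CPM here means reads per 1000000 reads of a library. Between 1439004 and 1742531 reads per library could be recovered from the steps of the values, and 1 read was worth 0.574 to 0.695 CPM. A count of 0 allows up to 3 reads, which is 2.08 and 1.72 CPM in tips 1 and 2 and 1.91 and 1.98 CPM in ducts 1 and 2. Of the 82 members, 79 averaged 1 CPM or more and were tested, 47 large and 32 small. The members not tested were Rpl10l, Rpl39l and Rpl3l.

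The label of basal cells was checked on 10 marker genes, none of which was at 0 in any library. Their summed level was 10503 and 9991 CPM in the tip libraries, 15455 in duct 1 and 6089 in duct 2. Markers of fibroblasts, which the gate against CD140a should remove, were present too: 15 genes summed to 6966, 13486, 3347 and 23268 CPM in the same order, again with none at 0. Pdgfra itself had 192.5 and 231 CPM in tips and 42.1 and 650.25 in ducts. Duct 1 and duct 2 therefore stood at opposite ends of both lists. In bulk samples, fewer cells of a type and less RNA per cell cannot be told apart.

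Basal cells of the tips and of the ducts did not differ detectably in any ribosomal protein message, and the family as a whole was lowest in one duct library and highest in the other. Members made up 2.62% of the reads in tip 1 (95% exact interval 2.59 to 2.64), 2.59% in tip 2 (2.57 to 2.61), 2.91% in duct 1 (2.89 to 2.94) and 2.02% in duct 2 (1.99 to 2.04). These intervals hold counting error alone, because PCR copies of a molecule could not be recognised. The tip libraries were alike and both lay between the ducts. As summed CPM the family had 26027 ± 189 (SD, n = 2) in tips and 24642 ± 6340 (SD, n = 2) in ducts. The difference on the log2 scale was 0.10, tip over duct, with a 2-sided exact permutation p of 1. An exact test of 2 libraries against 2 cannot give a p under 0.3333. Scaling by TMM turned this difference to -0.09 and median-ratio scaling to -0.13, and without duct 2 it was -0.16, so it has no stable direction.

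**Figure D1:**
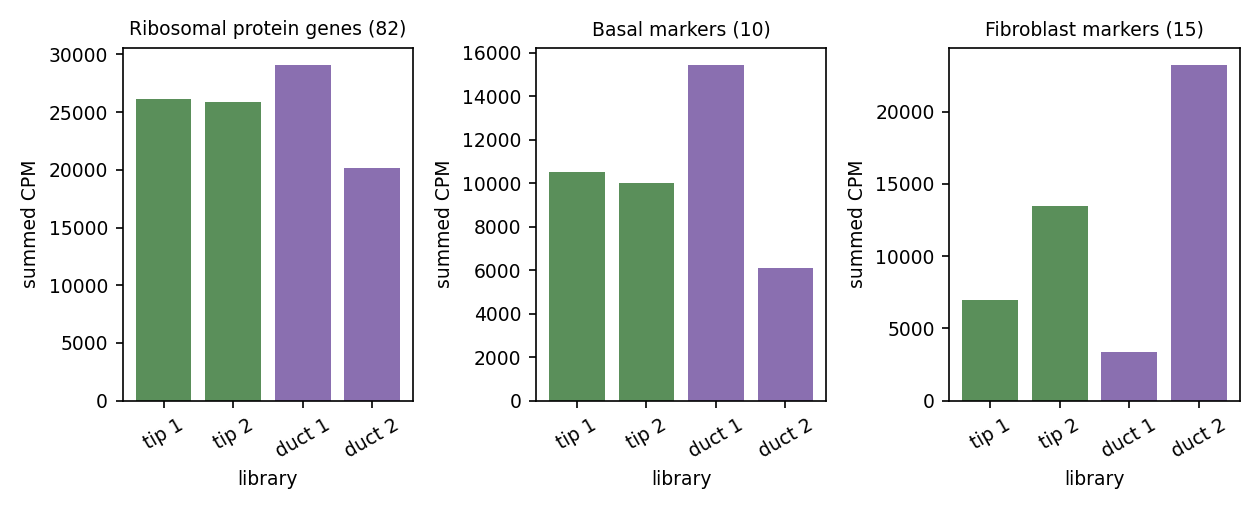
Summed CPM (linear axes from 0) of the 82 ribosomal protein genes, 10 basal markers and 15 fibroblast markers in each library; each bar is 1 library, green for tips and purple for ducts. Duct 1 is highest and duct 2 lowest in the ribosomal protein and basal panels, and the order of the ducts is the opposite in the fibroblast panel.

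The family moved with the marker sums across the 4 libraries. Summed ribosomal protein level was 1.44 times as high in duct 1 as in duct 2, and the same ratio between the tips was 1.01. Among the basal markers, 7 of 10 were highest in duct 1 and 9 of 10 lowest in duct 2. Among the fibroblast markers, 12 of 15 were highest in duct 2 and 14 of 15 lowest in duct 1. Summed over each group, basal markers ran from 9991 to 10503 CPM in tips and from 6089 to 15455 in ducts, and fibroblast markers from 6966 to 13486 in tips and from 3347 to 23268 in ducts. Endothelial markers (9 genes, with only Plvap at 0 in any library) summed to 107 to 119 CPM in tips, 41.1 in duct 1 and 361 in duct 2. The part of these other cells in the ribosomal protein values was not tested.

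Gene by gene, no member passed the test, and none of the 17865 genes tested did (0%; limma on log2(CPM + 1), Benjamini-Hochberg adjusted p under 0.05). No member had an unadjusted p under 0.05 in limma, edgeR or DESeq2, whereas 1326, 1047 and 416 of all genes did. The smallest adjusted p of a member was 0.676, for Rps4l. Both tip libraries lay above both duct libraries in 8 of 79 members (10.1%), which is under the 28.5% seen over all tested genes. No member lay below both duct libraries, against 11.1% of all tested genes. In the other 71 members the groups overlapped.

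That split depends on how libraries are scaled. With TMM scaling 2 members had both tip values on top and 9 had both at the bottom, and with median-ratio scaling these counts were 1 and 10. Over all tested genes the shares became 20.99% and 17.7% with TMM and 19.2% each way with median-ratio scaling. With quantile normalization 21 members were higher and 4 lower (26.6% and 5.06%, against 19.5% and 16.6% of all tested genes). The share of members higher was then above that of all tested genes, the reverse of the order as deposited. Without duct 2, 12 members were higher and 55 lower than the remaining duct library (15.2% and 69.6%, against 45.8% and 28.3% of all tested genes). Without duct 1, 71 were higher and 1 lower (89.9% and 1.27%, against 48.1% and 25.7%). The median log2 fold of the 79 members was 0.10, with quartiles of 0.02 and 0.18, while that of all tested genes was 0.20. It was 0.10 in the large and 0.10 in the small subunit. TMM scaling moved the median of all genes to 0.04 and that of the members to -0.08, and median-ratio scaling moved them to 0.00 and -0.13. Relative to the median of all genes the members stood at -0.09 as deposited, -0.12 with TMM and -0.12 with median-ratio scaling, but at 0.07 with quantile normalization and 0.14 without duct 1, and at -0.33 without duct 2.

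**Figure D2:**
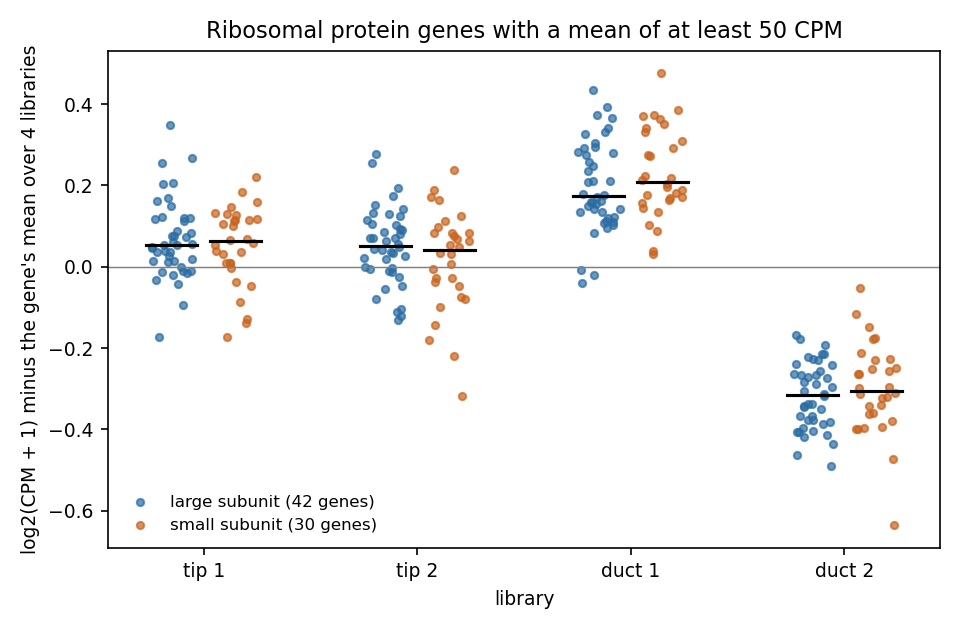
Each point is 1 of the 72 ribosomal protein genes that averaged 50 CPM or more, in 1 library, as log2(CPM + 1) minus that gene's mean over the 4 libraries; black bars are medians over the genes of a subunit. The tip libraries overlap, duct 1 lies above them for most genes and duct 2 below.

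The shape shared by the members was a gap between the 2 duct libraries, a pattern described after it was seen in the values. Duct 2 was the lowest of the 4 libraries in 70 of 79 members (88.6%, against 33.1% of all tested genes), in 43 of 47 of the large subunit and 27 of 32 of the small. Duct 1 was the highest in 55 (69.6%, against 23%). Both held in 52 members (65.8%, against 9.83%). High expression is part of the background: among the 3847 genes that averaged 50 CPM or more, 43.4% were lowest in duct 2, and 69 of the 72 members at that level were. The median fold of duct 1 over duct 2 was 1.41 in the members and that of tip 1 over tip 2 was 1.00. In log2 terms the median gap was 0.50 between the ducts and 0.09 between the tips, against 0.57 and 0.45 over all tested genes and 0.39 and 0.26 over the 3847 genes averaging 50 CPM or more. Median-ratio scaling lowered the count with duct 2 lowest to 44.

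Among the large subunit genes, the 5 highest by mean CPM were Rpl4, Rplp0, Rpl7, Rpl13 and Rpl3. Rpl4 (chromosome 9, 64173375 to 64178666, GRCm38, plus strand) encodes a protein whose long extension lines the exit tunnel for the growing chain. It had 1302 and 1234 CPM in tips and 1360 and 950 in ducts. Rpl7 had 787 and 799 CPM in tips against 815 and 534 in ducts. Rpl13 had 609.5 and 596 CPM in tips against 679.8 and 483 in ducts. In all 3 genes the tip values fell between the duct values, so the groups overlapped. Rpl3, which lies close to the peptidyl transferase centre, had 634 and 591 CPM in tips against 658 and 467 in ducts. Its muscle paralog Rpl3l had 1, 0, 0 and 1 read in tip 1, tip 2, duct 1 and duct 2, and is at or below what a count of 0 allows.

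The stalk of the large subunit, which recruits translation factors, is made of the products of Rplp0, Rplp1 and Rplp2. Rplp0 had 867 and 886 CPM in tips against 1021 and 694 in ducts. Rplp1 had 377 and 359.9 CPM in tips against 504 and 333 in ducts. Rplp2 had 206 and 219 CPM in tips against 283 and 148 in ducts. All 3 showed overlapping groups, with duct 1 highest and duct 2 lowest. Together the stalk genes took 5.55% and 5.66% of the ribosomal protein level in tips and 6.21% and 5.83% in ducts. That share was lower in both tip libraries, at the smallest exact permutation p the design allows, 0.3333. Taken singly, Rplp0 and Rplp1 had lower shares in both tip libraries. The share of Rplp2 overlapped, with 0.789% and 0.847% in tips and 0.970% and 0.735% in ducts.

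Among the small subunit genes, the 5 highest by mean CPM were Rps4x, Rps24, Rps20, Rpsa and Rps9. Rps4x, on the X chromosome, had 814 and 842 CPM in tips against 878 and 661 in ducts. Rps24 had 721 and 755 CPM in tips against 794 and 532 in ducts. Rps20 had 476 and 589.95 CPM in tips against 592 and 452 in ducts. Rps9, which lies in the decoding region, had 480.2 and 488 CPM in tips against 553 and 399 in ducts. Each showed the same order, with duct 1 highest, duct 2 lowest and the tips between. Rpsa, which encodes a protein also described as a laminin receptor precursor, had 550.4 and 579.65 CPM in tips against 639.6 and 327 in ducts. Its log2 fold of 0.30 ± 0.34 (SE) had an adjusted limma p of 0.839.

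The genes with tips above both ducts were examined next. By the rule for naming genes they were Rps26, Rpl22, Rpl11, Rpl23a and Rpl37. Rps26 (chromosome 10, 128624534 to 128626747, minus strand), whose product sits at the exit channel for mRNA, had 487 and 525 CPM in tips against 455 and 337 in ducts. Its log2 fold of 0.37 ± 0.27 (SE) was the largest of the 72 members averaging 50 CPM or more, and its adjusted limma p was 0.743. Rpl22 (chromosome 4, 152325742 to 152334071, plus strand), which also has a role in lymphocyte development, had 202 and 234 CPM in tips against 191 and 164 in ducts. Its log2 fold was 0.30 ± 0.27 (SE), with an adjusted limma p of 0.795. The gap between groups was narrow in both genes: the lower tip value exceeded duct 1 by less than duct 1 exceeded duct 2.

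Rpl11 and Rpl5 encode proteins that, with 5S ribosomal RNA, can bind and restrain Mdm2, the regulator of p53. Rpl11 had 241 and 235 CPM in tips against 233 and 163 in ducts, with a log2 fold of 0.29 ± 0.29 (SE). Rpl5 had 484 and 445 CPM in tips against 547 and 334 in ducts, so its groups overlapped. Rpl37 had 239 and 204 CPM in tips against 199 and 165 in ducts. Rpl23a had 81.4 and 74.7 CPM in tips against 69.6 and 58.7 in ducts. Of Rpl23a's exonic bases 59.7% lie opposite Tlcd1, and the strand setting of the counting is not given in the sources used here, so reads of the 2 genes may not be told apart. The other members with tips above both ducts were Rpl23, Rpl35 and Rps4l. Rpl23 had 301 and 301 CPM in tips against 299.75 and 220.05 in ducts, and Rpl35 had 39.7 and 39.1 against 37 and 31. The limit given for Rpl23a holds for Rpl35 too, with 66.2% of its exonic bases opposite Arpc5l and Wdr38. In addition, 95.1% of the 50-base stretches of its transcript occur in other genes.

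Several small subunit genes with known further roles were also lowest in duct 2. Rps6, the substrate of S6 kinase downstream of mTOR, had 461 and 457 CPM in tips against 512 and 347 in ducts. Rps3, which also acts in DNA repair, had 409 and 341.5 CPM in tips against 435 and 334 in ducts. Rps19, which is mutated in Diamond-Blackfan anaemia, had 320.4 and 261 CPM in tips against 309.95 and 220.05 in ducts. In all 3 the groups overlapped and duct 2 was lowest. Rps27a, which encodes ubiquitin fused to a ribosomal protein, had 365 and 355 CPM in tips against 459 and 289 in ducts.

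Fau, which lies outside the symbol rule, encodes a ubiquitin-like protein fused to a small subunit protein. It had 274 and 308 CPM in tips against 303 and 217 in ducts, so its groups overlapped and duct 2 was again lowest.

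Levels of different genes were compared per length, here as mean CPM per 1 kb of 1 annotated transcript per gene. This assumes that reads fall along the whole transcript. On that scale Rps27 was highest with 1351. Rpl41, whose coding sequence is only 75 bases of a 582-base transcript, had 476, although per 1 kb of coding sequence it would lead with 3690. Rps20, whose transcript used here has 3706 bases, ranked 68 per transcript and 4 per coding sequence. Rps4l and Rpl6l have no coding transcript and were not ranked. Of the tested members that have one, the same 4 were lowest on either scale. They were Rpl24 with 7.44 CPM per 1 kb of transcript, Rpl13a with 11.6, Rpl29 with 25.4 and Rpl35 with 38.8. Many members share sequence with other genes: in 44 of the 80 members with a coding transcript, at least 50% of all 50-base stretches of the transcript also occur in another annotated gene, and the median is 53.5%. How the authors treated reads that fit several genes is not stated in the labels. The median level was 374 CPM per 1 kb of transcript in the 44 tested members sharing at least 50% of their stretches and 394 in the other 33. Per 1 kb of coding sequence the medians were further apart, 567 and 712 in the same order, so the size of this difference depends on the scale.

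The values of the low members are uncertain, and the part of shared sequence in their low levels was not tested. Rpl24 had 2.1 and 5.75 CPM in tips against 8.3 and 4 in ducts, from 3 to 13 reads per library. Of its exonic bases 47% lie within those of Gm28037 on the same strand, a gene listed at 0 in all 4 libraries, and 81.7% of its stretches occur elsewhere. Rpl13a had 11.2 and 12.7 CPM in tips against 10.9 and 13.9 in ducts, with 35.4% of its exonic bases overlapped on the same strand. Rpl29 had 20.2 and 16.1 CPM in tips against 15.95 and 19.8 in ducts. None of these followed the order of the abundant members.

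Sharing did not separate the members that followed the common order. Duct 2 was lowest in 40 of 44 tested members with at least 50% of stretches shared and in 30 of 33 with less. The median fold of duct 1 over duct 2 was 1.42 in the first set and 1.38 in the second. The order was also compared by snoRNA content, but not by position on the chromosomes. Members lie on 19 chromosomes, 4 of them on the X, and 29 members hold 56 snoRNA genes between them. Duct 2 was lowest in 27 of the 29 members that hold a snoRNA gene and in 43 of the 50 that hold none.

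Paralogs of restricted tissues were at the detection limit. Rpl10l, a testis paralog, had no read in any library, while Rpl10, its X-linked partner, had 616 and 580.2 CPM in tips against 627.5 and 520.45 in ducts. Rpl39l had 0, 0, 1 and 1 read, while Rpl39, also X-linked, had 207 and 192 CPM in tips against 261 and 149.55 in ducts. Rps27l, a p53-responsive paralog, was well above it with 35.5 and 40.8 CPM in tips against 31.9 and 35.6 in ducts, and its partner Rps27 had 497 and 405 against 594 and 369. The annotation lists 2 members as pseudogenes, Rpl6l and Rps4l. Rps4l rested on 4 and 9 reads in tips and 1 and 2 in ducts. Rpl6l had 11.2 and 18.95 CPM in tips against 8.95 and 11.9 in ducts.

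To look at the members among themselves, each was taken as its share of the summed ribosomal protein level, which no library scaling moves. Between pairs of libraries the log2 share ratios of the 72 abundant members had an SD of 0.161 to 0.191. Counting alone would give a root mean square error of 0.0974 to 0.112. Chi-square per degree of freedom was 2.37 to 4.65 for the members, and 17.0 to 57.5 for all 3847 genes at that level. Within groups the SD was 0.166 between tips and 0.169 between ducts, inside the range of the tip against duct pairs.

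**Figure D3:**
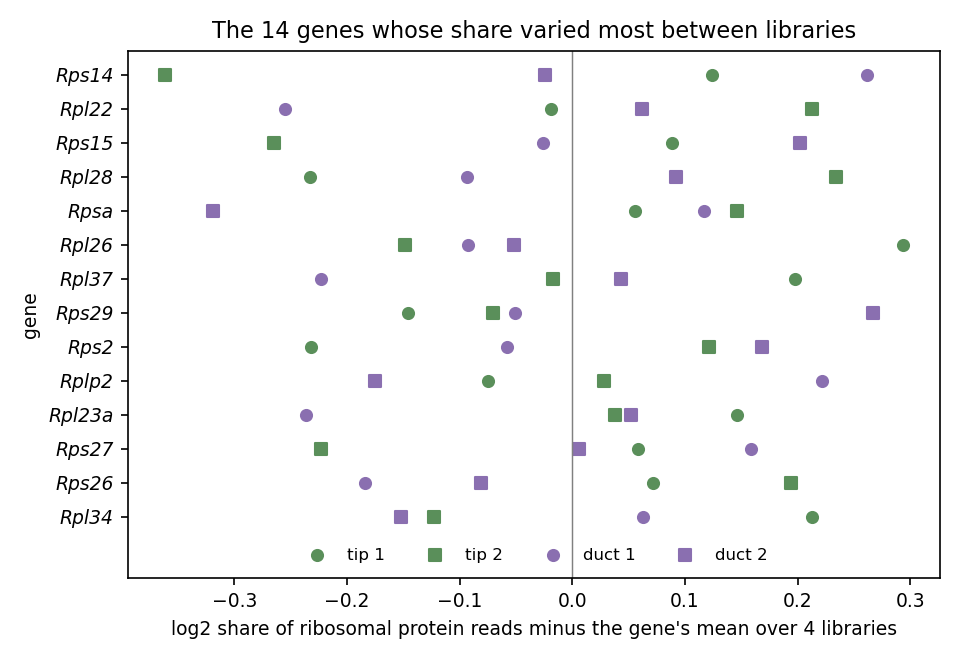
Share of the summed ribosomal protein level (log2, minus the gene's mean over the 4 libraries) for the 14 genes with the widest range, 1 point per library, green for tips and purple for ducts. Most genes show tips and ducts interleaved, and Rps14 has the widest range, 0.62.

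Over the 4 libraries the share of 71 of 72 members stayed within a range of 0.5 on the log2 scale, with a median range of 0.21. The exception was Rps14, which is lost in the 5q deletion syndrome of human blood and is named here after its values were seen. It took 1.36% and 0.971% of the family in tips and 1.498% and 1.23% in ducts, so the low value was that of tip 2. For Rps26 the share was 1.86% and 2.03% in tips against 1.56% and 1.67% in ducts. Of the 72 members, 13 had a higher share in both tip libraries and 14 a lower one. With so few libraries such separations also arise without any difference between groups. No background share was computed, so these counts are not read as a result about the members.

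The balance between subunits was nearly constant. Summed large over summed small subunit level was 1.39 and 1.41 in tips and 1.35 and 1.37 in ducts, 1.40 ± 0.012 (SD, n = 2) against 1.36 ± 0.0096 (SD, n = 2). Both tip values were higher, with a 2-sided exact permutation p of 0.3333, the smallest the design allows. The log2 difference was 0.04. With equal weight for each tested member, as the mean of log2(CPM + 1), it was -0.00076. That value depended on the pseudogene Rps4l, which had 1 to 9 reads: without it the difference was 0.04, and over the 72 members averaging 50 CPM or more it was 0.05.

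Genes that build and use the ribosome were read from lists drawn up with earlier results of these data known. The assembly list holds factors that process ribosomal RNA and join proteins to it in the nucleolus, and 36 of its genes were tested. In 19 of them both tip libraries lay below both duct libraries (52.8%, against 11.1% of all tested genes), and in 2 above (against 28.5%). None passed the adjusted limma test, and 8 had an unadjusted p under 0.05. The median log2 fold was -0.36, while all tested genes had 0.20 and the ribosomal protein genes 0.10. The direction of this median was the same under every scaling run and without each library in turn, with values from -0.60 to -0.29.

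Rrs1, needed for 60S assembly, had 22.3 and 10.4 CPM in tips against 44.7 and 46.2 in ducts. Its log2 fold was -1.51 ± 0.44 (SE), with an adjusted limma p of 0.667. Nob1, the nuclease that cuts the end of 18S ribosomal RNA, had 9.75 and 5.75 CPM in tips against 26.8 and 22.4 in ducts. Its log2 fold was -1.58 ± 0.46 (SE), also with an adjusted limma p of 0.667. The duct libraries were closer to each other, as a ratio, than the tip libraries in both genes. The 2 assembly genes higher in both tip libraries were Nhp2, with 18.1 and 16.1 against 14.1 and 12.6 CPM, and Npm1, with 472 and 465 against 444.5 and 417 CPM. For Npm1 the direction flipped under TMM and median-ratio scaling. Rrs1 passed the limma test only without duct 2, with an adjusted p of 0.0417, which leaves duct 1 alone to stand for the ducts.

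**Figure D4:**
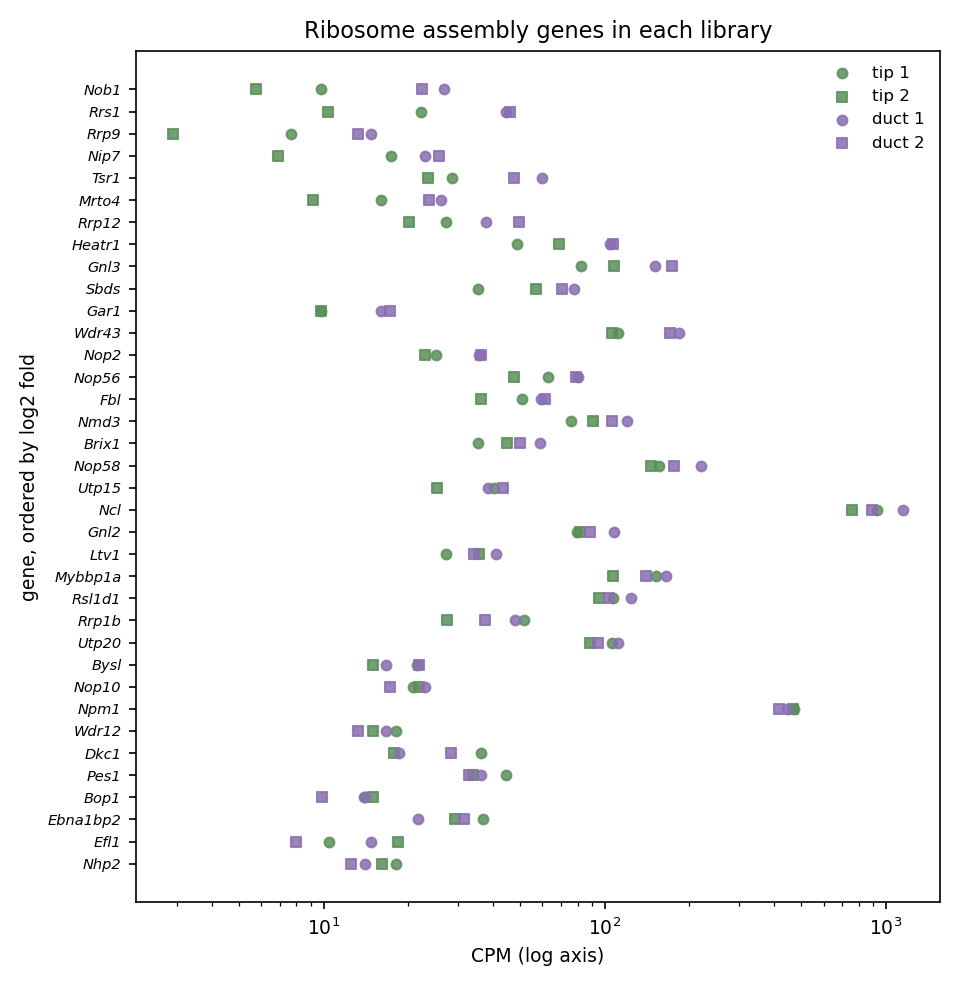
CPM on a log axis of the 36 tested ribosome assembly genes, ordered by log2 fold with the genes lowest in tips at the top; 1 point per library, green for tips and purple for ducts. In 19 genes both green points lie left of both purple points, and in 2 to the right.

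Counts for the translation factors depended on the scaling. Of 32 initiation factor genes, 8 had both tip libraries on top and 7 had both at the bottom (25% and 21.9%, against 28.5% and 11.1% of all tested genes). With TMM scaling the counts were 4 and 13 and with median-ratio scaling 3 and 14, where all tested genes had the shares given above for those scalings. Eif4e, the cap-binding protein, had 98 and 152 CPM in tips against 182 and 363 in ducts. Eif6, which keeps the 60S subunit from joining too early, had 39.7 and 52.3 CPM in tips against 115 and 65.3 in ducts. Eif4b, itself a TOP message, had 393 and 363 CPM in tips against 288 and 258 in ducts, and Eif4a2 had 388 and 292 against 263 and 244. None of these genes passed the test. Of 10 elongation and termination genes 1 was higher and 2 were lower (10% and 20%, against 28.5% and 11.1% of all tested genes). The higher gene was Eef2k (87.6 and 55.7 against 30.7 and 29.7 CPM), the kinase that restrains elongation. The lower genes were Etf1 and Gspt1. With TMM or median-ratio scaling 1 was higher and 5 lower (10% and 50%). All tested genes then had 20.99% and 17.7% with TMM and 19.2% each way with median-ratio scaling.

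A list of 20 genes with TOP messages outside the family overlaps the lists above. Eif3e, Eif3f, Eif3h and Eif4b are also initiation genes, Eef1a1, Eef1b2, Eef1d, Eef1g and Eef2 also elongation genes, and Npm1 also an assembly gene. Of the 20, 5 had both tip libraries above the ducts (25%, against 28.5%) and 0 below (against 11.1%). Eif4b and Npm1 are among the 5, so they are counted on 2 lists. TMM and median-ratio scaling each turned these counts to 2 and 5 (10% and 25%). Among 19 genes for RNA polymerase I and its factors, which make ribosomal RNA, 4 were higher and 2 lower (21.1% and 10.5%, against the same shares of all tested genes). TMM scaling turned this to 2 and 6 (10.5% and 31.6%) and median-ratio scaling to 2 and 7 (10.5% and 36.8%). Taf1b had 25.8 and 11.5 CPM in tips against 8.95 and 3.3 in ducts, and Ubtf had 156 and 87.3 against 77.8 and 78.4. Polr1c had 17.4 and 15 CPM in tips against 24.9 and 29.7 in ducts, and Polr1b had 18.1 and 10.4 against 21.1 and 20.45. Of 18 genes that signal growth to the ribosome, 7 were higher and 2 lower (38.9% and 11.1%, against 28.5% and 11.1% of all tested genes). The counts were 4 and 3 with TMM (22.2% and 16.7%) and 4 and 5 with median-ratio scaling (22.2% and 27.8%). All tested genes had 20.99% and 17.7% with TMM and 19.2% each way with median-ratio scaling. Mtor had 91.8 and 104 CPM in tips against 64.5 and 63.3 in ducts, and Mxd4, a Myc antagonist, had 129 and 87.3 against 51.7 and 71.9. Myc had 148 and 255 CPM in tips against 259.55 and 358 in ducts, and Rps6kb1, the S6 kinase, had 89 and 108 against 143 and 112. None of the genes on these lists passed the limma test after adjustment.

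**Figure D5:**
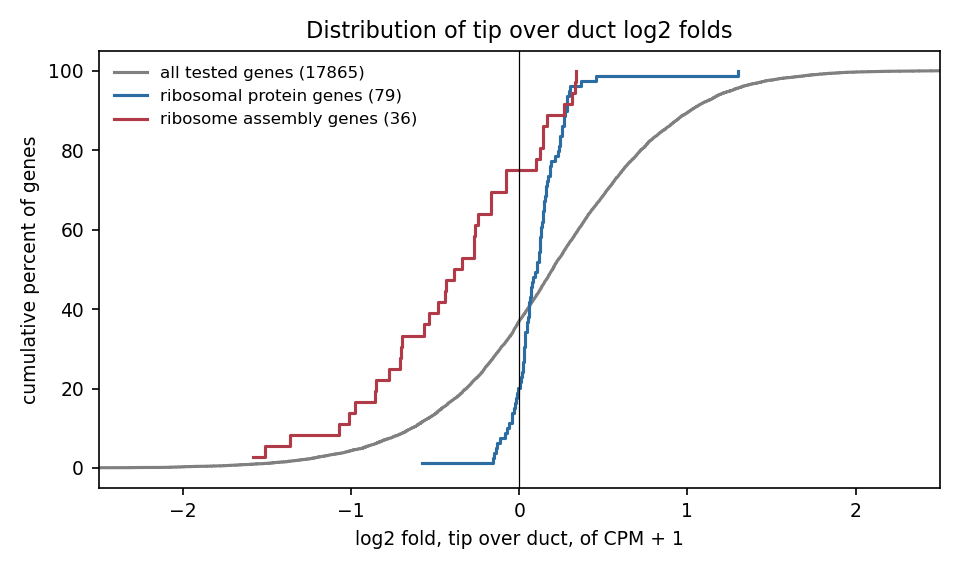
Cumulative percent of genes by log2 fold (tip over duct, of CPM + 1) for all 17865 tested genes, 79 tested ribosomal protein genes and 36 tested ribosome assembly genes, with folds beyond 2.5 either way off the axis. The ribosomal protein curve is steep around its median of 0.10, and the assembly curve lies to its left with a median of -0.36.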

How the data were processed

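The signal in the authors' deposited table (49671 genes) consists of reads per gene, scaled to a common total and rounded up (sums of 20008326 to 20011820); this was read from the values. STAR, HTSeq and GRCm38 (mm10) are named per the submitters' processing notes, and versions, strand setting and treatment of multiply mapping reads could not be learned from these sources. Values were divided by 20 to give CPM. Dividing by the step of each library gave whole reads, within 0.1 read, for 100% of values, with totals of 1439004, 1742531, 1568194 and 1517982 (tip 1, tip 2, duct 1, duct 2).

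Tip and duct were compared with limma 3.58.1 (R 4.3.3) on log2(CPM + 1), moderated robustly with a trend in the variance, over 17865 genes averaging 1 CPM or more. P-values were adjusted by Benjamini-Hochberg, with a threshold of 0.05. The steps were tested on simulated data. edgeR 4.0.16 and DESeq2 1.42.0 on recovered reads called 0 and 2 genes. Folds on this scale understate changes of low genes. Alternatives were other scalings, pseudocounts and filters, a replicate block, and each library left out. Single values per library were compared by exact permutation, and lists by counts and medians. No 2 libraries agreed within sampling noise.

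Named were the 5 most abundant members of each subunit, up to 4 per subunit and direction with non-overlapping groups and the largest fold (mean of at least 5 CPM), stalk genes, Rpsa, members with known roles, paralogs with their partners, and up to 2 genes per direction of each other list. Further genes were named after their values were seen: Rps14, Rpl23, Rpl35, Rps4l, Rpl41, Rpl24, Rpl13a, Rpl29, Rpl6l and, for their start sequences, Rpl27a, Rpl7a and Rpl15. Members and lists were chosen with earlier results of these data known. Gene positions and shared 50-base stretches come from GENCODE M21 on GRCm38, and start windows from RefSeq on GRCm38.p6. Luminal cells were not analysed here, and 1 gene that the naming rule covers is not reported here.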

Additional observations from a re-analysis of the deposited data

How the results depend on the processing

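No ribosomal protein gene passed the adjusted limma, edgeR or DESeq2 threshold under any alternative run. Over all genes the count called was 0 as reported, 40 with no filter, 2 with DESeq2 and 0 to 904 when each library was left out, where the lone library of a group is assumed to vary like the others. Without duct 1, Eif4e and Taf1b passed the limma test (adjusted p 0.000986 and 0.0322), and without duct 2 Eif6 and Rrs1 did (adjusted p 0.0168 and 0.0417). The 8 members higher in both tip libraries became 2 (TMM), 1 (median-ratio scaling) and 21 (quantile normalization), and 12 to 71 with a library left out. With quantile normalization the share was 26.6%, above the 19.5% of all tested genes. The 0 lower became 9, 10 and 4, became 1 when mitochondrially encoded genes and the 10 most abundant genes were left out of the totals and 1 with no filter, and ran from 1 to 55 with a library left out. Median-ratio scaling gave 44 members lowest in duct 2 in place of 70. The median log2 fold of members, 0.10, became -0.084 with TMM, -0.13 with median-ratio scaling, -0.12 with edgeR and -0.16 with DESeq2, and ran from -0.16 to 0.35 with a library left out. The difference in summed level became -0.085 with TMM and -0.13 with median-ratio scaling and ran from -0.16 to 0.37 with a library left out. The large over small subunit difference became -0.00076 with equal weights, but 0.04 with equal weights and without Rps4l and 0.05 over members averaging 50 CPM or more, alternatives chosen after seeing the data. For the assembly genes, the count lower in both tip libraries was 9 among those averaging 50 CPM or more. Of all genes at that level 14.4% were lower. With a library left out the count was 20 to 27 (55.6% to 75%). The background rose too, to 20.3% to 28.3% of all tested genes. Their median was -0.55 with TMM, -0.59 with median-ratio scaling, -0.52 with quantile normalization, -0.56 with edgeR, -0.60 with DESeq2 and -0.46 to -0.29 with a library left out. The alternatives for the assembly genes and for duct 2 were chosen after seeing the data. A fit with the replicate number as a block called 0 genes, as without it. Counted within the pairs, 16 members were higher and 1 lower in tip (20.3% and 1.27%, against 38.7% and 17.1% of all tested genes), and deviations of same-numbered libraries correlated at 0.15 over 17865 genes, but 2 pairs cannot show that the numbers pair the libraries. Depth limits the lowest members, for which 1 read is 0.574 to 0.695 CPM.

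Folds of single named genes near 0 changed sign with the scaling, and the cause was not tested. With TMM scaling the reversed log2 folds were Rpl39 -0.17, Rpl29 -0.16, Rps20 -0.15, Rps9 -0.14, Rplp0 and Rplp2 -0.13, Rpl13 and Rpl10 -0.12, Rpl5 -0.069, Rps4x -0.068, Npm1 -0.066, Rps6 -0.065, Rpl3 -0.046, Rps19 -0.041, Rpl4 -0.030, Rps27l -0.014, Fau -0.0086, Rps24 -0.0049, Rpl41 -0.0037. With median-ratio scaling they were Rpl39 -0.22, Rps20 and Rpl29 -0.20, Rps9 -0.19, Rplp2 -0.18, Rplp0 and Rpl10 -0.17, Rpl13 -0.16, Rps4x, Rps6, Rpl5 and Npm1 -0.11, Rpl3 -0.089, Rps19 -0.085, Rpl4 -0.074, Rps27l -0.057, Fau -0.052, Rps24 -0.049, Rpl41 -0.047, Rpl35 -0.015, Rpl23 -0.0027. With edgeR they were Rpl39 -0.23, Rplp2 -0.21, Rpl29 -0.19, Rps9 -0.17, Rps20 and Rplp0 -0.16, Rpl13 and Rpl10 -0.14, Rpl5 -0.12, Rps6 -0.098, Rps4x -0.088, Npm1 -0.077, Rpl3 -0.074, Rps19 -0.066, Rpl4 -0.060, Rps24 -0.037, Fau -0.029, Rps27l and Rpl41 -0.020. With DESeq2 they were Rpl39 -0.27, Rplp2 -0.24, Rpl29 -0.23, Rps9 -0.21, Rps20 and Rplp0 -0.20, Rpl13 and Rpl10 -0.18, Rpl5 -0.15, Rps4x and Rps6 -0.13, Rpl3 and Npm1 -0.11, Rps19 -0.10, Rpl4 -0.097, Rps24 -0.074, Fau -0.066, Rps27l and Rpl41 -0.057, Rpl35 -0.024, Rpl23 -0.019. With quantile normalization they were Rpl29 -0.27, Rps27l -0.063, Rpl35 -0.026, Rps27a 0.0017. With totals that leave out the mitochondrial and the 10 most abundant genes they were Rpl39 -0.045, Rpl29 -0.036, Rps20 -0.025, Rps9 -0.016, Rplp2 -0.0036, Rplp0 -0.0015. Leaving out each library in turn gave Rpl4 -0.10 to 0.42, Rpl7 -0.040 to 0.57, Rpl13 -0.17 to 0.32, Rpl3 -0.10 to 0.39, Rps4x -0.085 to 0.32, Rps24 -0.11 to 0.47, Rps20 -0.16 to 0.23, Rps9 -0.19 to 0.28, Rplp0 -0.22 to 0.34, Rplp1 -0.45 to 0.15, Rplp2 -0.41 to 0.52, Rpsa -0.18 to 0.79, Rps6 -0.16 to 0.40, Rps19 -0.099 to 0.39, Rpl5 -0.24 to 0.47, Rps3 -0.22 to 0.16, Rps27a -0.35 to 0.32, Fau -0.061 to 0.42, Rpl10 -0.070 to 0.20, Rpl39 -0.38 to 0.41, Rps27 -0.40 to 0.28, Rps14 -0.54 to 0.27, Rpl13a -0.21 to 0.12, Rpl29 -0.13 to 0.18.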

Other observations

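Genes for the proteins of the mitochondrial ribosome, a separate particle that translates the messages of mitochondrial DNA, are a list drawn up after the values were seen. Of 76 tested, 33 lay higher in tip 1 and tip 2 than in either duct library (43.4%, against 28.5% of all tested genes) and 4 lay lower (5.26%, against 11.1%). Limma called 0 of them after adjustment and gave 5 an unadjusted p under 0.05. Summed CPM was 991 and 853 in tips and 709 and 666 in ducts. The median log2 fold was 0.49, and 0.33 with TMM and 0.30 with median-ratio scaling. Duct 1 was the lowest library for 32 of these genes and the highest for 9, unlike for the cytosolic ribosomal protein genes.

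Rows named as pseudogenes of cytosolic ribosomal proteins were also listed after the values were seen. Of 275 such rows, 122 were tested and 81 had no read in any library. Their summed level was 1272 and 1216 CPM in tips and 1542 and 1002 in ducts. Among the tested rows, 62 were lowest in duct 2 (50.8%, against 33.1% of all tested genes and 88.6% of the ribosomal protein genes) and 53 highest in duct 1 (43.4%, against 23% and 69.6%).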
